A study of Mus musculus with 12 samples.

Results

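Genes of the ciliary axoneme and of transport within cilia were followed in the olfactory mucosa of mice with and without a large deletion on chromosome 7. A member had a symbol starting with Dnah, Dnai or Dnaic, Rsph, Tekt, Cfap, Ift or Bbs and then a number, and a mean deposited value of at least 10 over all 12 animals. There were 72 members among 39395 genes. The motile axoneme class held 50 of them: 12 Dnah, 2 Dnaic, 6 Rsph, 4 Tekt and 26 Cfap genes. The transport class held 22: 14 Ift genes, counting the antisense RNA Ift88os, and 8 Bbs genes.

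Of 75 matching symbols, 3 were below the mean of 10. The members nearest to that limit were Ift88os at 19.0 and Cfap73 at 24.4, and the nearest genes outside it were Rsph6a at 5.92 and Tekt5 at 5.18. A further 6 genes with matching names in the GENCODE M21 annotation (Cfap300, Dnah12, Dnah14, Dnah9, Ift57 and Rsph10b) were not analysed here. Another 4 were listed under clone names, so the symbol rule left them out. Members were thus chosen by their names and by their mean value over both genotypes, so levels are given as a description. The rule did not use the difference between genotypes.

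The study compared 6 mice carrying the deletion with 6 wild-type mice, all male, at postnatal day 30 and of mixed 129S6;C57BL/6J background. Each animal gave 1 library of ribodepleted, strand-specific total RNA from the olfactory mucosa, the lining of the nose in which olfactory sensory neurons lie. The deletion removes 408217 bp (chr7:102509797-102918014, GRCm38), which the labels describe as an enhancer deletion. The nearest member, Dnah3, lies 17 Mb from it. Whether deletion animals carried it on one or both chromosomes is not stated in the labels.

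A motile cilium beats because dynein arms slide its doublet microtubules against each other, under the control of radial spokes and a central pair. Cilia are built by intraflagellar transport, in which trains of IFT proteins carry cargo to and from the tip, while the BBSome moves membrane proteins. In the nose, respiratory multiciliated cells bear motile cilia, whereas the long cilia of mouse olfactory neurons carry the odorant receptors and do not beat. Both kinds of cilium need the transport genes.

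Recovered reads ran from 10091239 to 18612011 per deletion library and from 13942401 to 18044908 per wild-type library. The 30 listed genes inside the deleted interval held 3 reads in all deletion libraries together and 10880 in all wild-type libraries, which checks the genotype labels. Per library these genes held 0 to 1 reads in deletion animals and 1522 to 2000 in wild-type animals. Almost no reads therefore came from an intact copy of the interval in any deletion animal. Omp, the defining marker of mature olfactory neurons, averaged 58419 normalised counts over the 12 libraries. Deletion animals 3 and 2 stood apart from the rest, with at least 1 read on 94.6% and 80.6% of listed genes. The other 4 deletion libraries had a read on 67.2% to 75.6% of genes, and the wild-type libraries on 65.2% to 69.3%. Results are therefore also given without these libraries where that changes them.

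Both classes were expressed in every animal, and transport genes had the higher typical level. Values are normalised counts, meaning read counts divided by a size factor per library, and levels between genes are compared per kb of exon. The median level over 12 animals was 74.1 normalised counts per kb for the 50 motile members (range 2.72 to 783) and 225 for the 22 transport members (range 9.40 to 582). By family the median per kb was 303 for Ift, 226 for Rsph, 203 for Bbs, 90.3 for Cfap, 78.7 for Dnaic, 54.2 for Tekt and 22.1 for Dnah. The families overlapped widely: the 4 highest members per kb were all motile ones, Cfap69, Cfap36, Rsph1 and Cfap206.

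**Figure D1:**
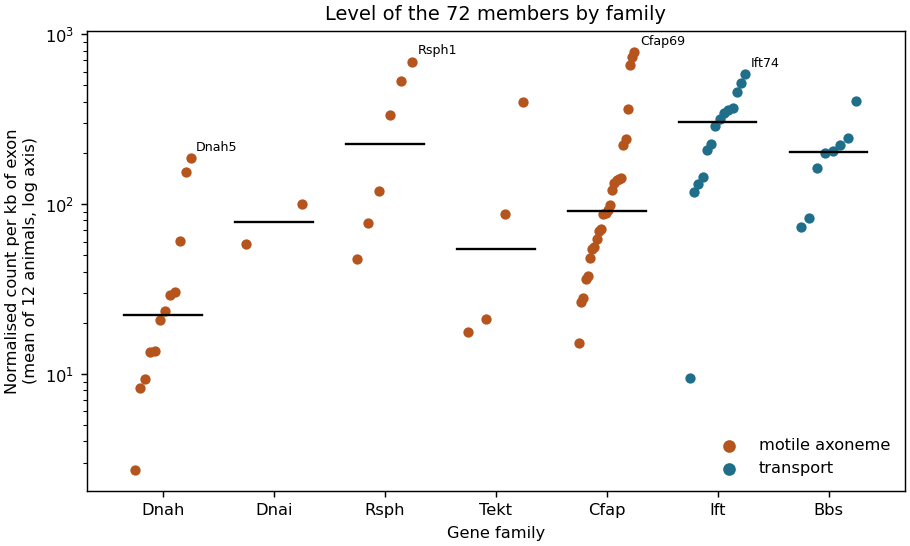
Mean normalised count per kb of exon over 12 animals (log axis) for each of the 72 members, by gene family; each point is a gene, ordered within its family, and the horizontal line is the family median. The Dnah median, 22.1, is the lowest of the 7 families and the Ift median, 303, the highest.

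Cfap69, a protein of the central apparatus that in mouse also shapes the response of olfactory neurons to odour, had the highest level of all members, at 783 normalised counts per kb. Its normalised count was 5192, 6381 and 6690 in deletion animals (lowest, median and highest) and 5425, 6220 and 7127 in wild-type animals. The 2 ranges overlapped almost fully. Cfap36, which binds the small GTPase Arl3, had 738 normalised counts per kb, and Rsph1, a radial spoke head protein, had 689. The transport genes Ift74, which with Ift81 binds tubulin cargo, and Ift43, a subunit of the retrograde complex IFT-A, had 582 and 517 normalised counts per kb.

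Among dynein heavy chains, the outer arm genes led. Dnah5 reached 186 and Dnah11 155 normalised counts per kb, against 60.5 for Dnah6, an inner arm gene. The lowest were Dnah17 at 2.72 and Dnah8 at 8.29 normalised counts per kb, both outer arm heavy chains best known from sperm flagella. The exon length used joins all annotated exons of a gene, and at 26820 bp that of Dnah8 was the longest of the Dnah members. By normalised count Dnah8, at 222, was above Dnah7a, Dnah7b and Dnah7c, at 169 to 185, so its place per kb depends on that length. Dnah7a, Dnah7b and Dnah7c are near-identical copies, so reads shared between them could have been split in counting. Their levels of 9.26 to 13.6 normalised counts per kb are uncertain for that reason.

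Regulatory factors of the RFX family are the known common regulators of ciliary genes, so the promoters of members were searched for the RFX motif GTTGCC on either strand. A RefSeq promoter window (GRCm38.p6, 250 bases before to 50 after the start site) was matched for 59 of 72 members. This motif was found in 16 of 41 motile genes (39.0%) and 7 of 18 transport genes (38.9%), against 3821 of 27025 genes with a window (14.1%). The 16 include the near-identical copies Dnah7a, Dnah7b and Dnah7c. The set of all genes was not limited to genes expressed in this tissue, whereas members had to reach a minimum level. With 1 free base (GTTNCC, which includes GTTGCC) the shares were 73.2% and 83.3%, against 48.8% of all genes. For the longer GTTGCCA, which also contains GTTGCC, they were 19.5% and 16.7%, against 5.02%. The CCAAT box was in 39.0% of motile and 55.6% of transport genes, against 41.1% of all genes. The forkhead motif GTAAACA was in 9.76% of motile and 0 of 18 transport genes, against 4.05% of all genes.

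The site lay in the 100 bases before the start in 10 of the 16 motile genes and 1 of the 7 transport genes that held it. In Tekt2 and Cfap74 it occurred 4 times. The sequences below are the 250 bases before the start site (RefSeq, GRCm38.p6), with GTTGCC or its reverse complement GGCAAC in capitals. They belong to the highest motile members (Cfap44 and Cfap20) and transport members (Ift140 and Bbs7) by normalised count with the motif there, and to Cfap46, which had the smallest p between genotypes. Cfap44 at chr16:44394549-44394798 and Ift140 at chr17:25015836-25016085 are on the plus strand. Cfap20 at chr8:95434870-95435119, Bbs7 at chr3:36613390-36613639 and Cfap46 at chr7:139683816-139684065 are on the minus strand.
Cfap44: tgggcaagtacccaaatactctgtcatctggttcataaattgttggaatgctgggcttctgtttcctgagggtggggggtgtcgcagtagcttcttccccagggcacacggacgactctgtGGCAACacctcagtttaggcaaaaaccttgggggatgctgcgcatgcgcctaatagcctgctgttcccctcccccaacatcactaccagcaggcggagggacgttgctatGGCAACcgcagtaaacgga
Cfap20: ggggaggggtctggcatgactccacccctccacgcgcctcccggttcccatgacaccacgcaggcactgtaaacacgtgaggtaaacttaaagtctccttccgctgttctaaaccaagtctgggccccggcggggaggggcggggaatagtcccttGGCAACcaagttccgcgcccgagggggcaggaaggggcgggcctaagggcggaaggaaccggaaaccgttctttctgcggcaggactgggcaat
Ift140: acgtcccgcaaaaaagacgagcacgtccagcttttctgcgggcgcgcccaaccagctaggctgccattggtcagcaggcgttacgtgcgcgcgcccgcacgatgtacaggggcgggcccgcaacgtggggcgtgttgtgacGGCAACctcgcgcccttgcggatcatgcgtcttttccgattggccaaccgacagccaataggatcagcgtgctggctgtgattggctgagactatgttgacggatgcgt
Bbs7: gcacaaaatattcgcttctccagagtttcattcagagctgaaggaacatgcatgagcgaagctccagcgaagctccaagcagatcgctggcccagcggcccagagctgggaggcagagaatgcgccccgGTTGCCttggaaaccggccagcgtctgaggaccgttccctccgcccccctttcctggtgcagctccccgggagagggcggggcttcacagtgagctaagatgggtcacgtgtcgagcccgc
Cfap46: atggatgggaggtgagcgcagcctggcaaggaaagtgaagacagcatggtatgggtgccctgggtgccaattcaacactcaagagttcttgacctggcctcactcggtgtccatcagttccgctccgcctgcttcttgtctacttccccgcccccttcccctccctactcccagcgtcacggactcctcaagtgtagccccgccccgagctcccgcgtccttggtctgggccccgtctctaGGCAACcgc
Cfap44 holds the site at 2 places, 19 and 129 bases before the start, and Cfap46 holds it 9 bases before the start. A match says that these letters are there, not that a factor binds.

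No member passed the test between genotypes. The test was limma on log2(value + 1), two-sided, with Benjamini-Hochberg adjustment over all 17320 genes tested and a threshold of 0.05. It called 86 of those genes (0.497%), 9 higher and 77 lower in deletion animals. All 72 members passed the filter on low counts, and 0 of 50 motile and 0 of 22 transport members were called, with a smallest adjusted p of 0.882. edgeR and DESeq2 on recovered reads also called 0 members, with smallest adjusted p of 0.946 and 0.618. In the authors' deposited table, too, no member had an adjusted p under 0.05, and the smallest was 0.988. At an unadjusted limma p under 0.05 there were 3 motile members and 0 transport members, beside 760 of all 17320 genes (4.39%). Of the 3, Dnah8 and Dnah7a were higher in deletion animals, beside 349 of all genes (2.02%), and Cfap46 was lower, beside 411 (2.37%). No member had ranges that did not overlap between genotypes, against 109 of all genes (0.629%).

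The log2 fold changes of members, deletion over wild type, were small. The median was 0.01 for motile members (27 above 0, 23 below; range -0.37 to 0.37) and -0.03 for transport members (3 above 0, 19 below; range -0.16 to 0.05). Over all genes tested the median was -0.01, with 45.9% above 0. By family the median was 0.10 for Dnah (10 of 12 above 0), 0.09 for Tekt, 0.05 for Dnaic, -0.01 for Rsph, -0.02 for Bbs, and -0.03 for both Cfap (10 of 26 above 0) and Ift. Without deletion animal 3 the transport median was -0.0047, with 8 above 0 and 14 below. The motile median was 0.02 without that animal but -0.01 without deletion animal 6. The Dnah median without deletion animal 3 was 0.09, with 9 of 12 above 0. On simulated counts for the same 17320 genes, limma found 43 of 50 genes raised by a factor of 2 and 38 of 50 lowered by a factor of 0.5. It found 11 of 50 lowered by a factor of 0.8 and 10 of 50 raised by the inverse of that factor. The changed genes were drawn at random from all genes tested and not at the levels of the members. These results therefore do not measure how often a changed member would be found.

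**Figure D2:**
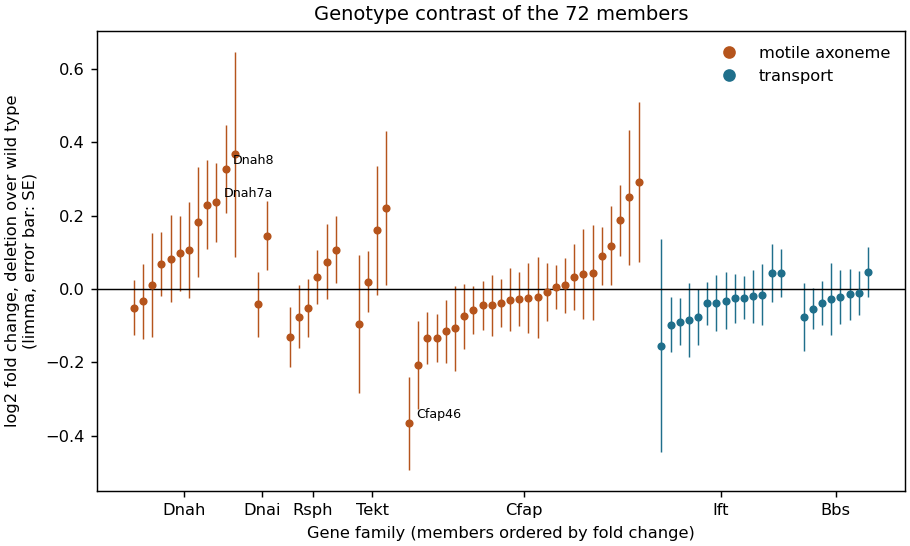
Log2 fold change, deletion over wild type, for each of the 72 members by family, ordered by fold change within the family; points are limma estimates on log2(value + 1) and bars are 1 SE. Transport genes lie between -0.16 and 0.05, while motile genes spread from -0.37 to 0.37; the 3 genes with an unadjusted p under 0.05 are named, and none passed the adjusted threshold.

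Summed over members, the levels of both classes overlapped between the genotypes. The 50 motile genes summed to 33888, 34929 and 38521 normalised counts in deletion animals (lowest, median and highest) and to 34627, 35875 and 36583 in wild-type animals. Their means were 35367 ± 1621 in deletion animals and 35809 ± 681 in wild-type animals (SD, n = 6 each). The 22 transport genes summed to 26020 ± 1600 in deletion animals and 26378 ± 955 in wild-type animals. Deletion animal 3 had the lowest transport sum of all 12, at 23091. The ratio of motile to transport sums was 1.36 ± 0.058 in deletion animals and 1.36 ± 0.060 in wild-type animals. The 12 dynein heavy chains summed to 8403 ± 604 in deletion animals and 8123 ± 886 in wild-type animals. In these bulk samples, fewer cells of a type and less RNA per cell cannot be told apart.

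**Figure D3:**
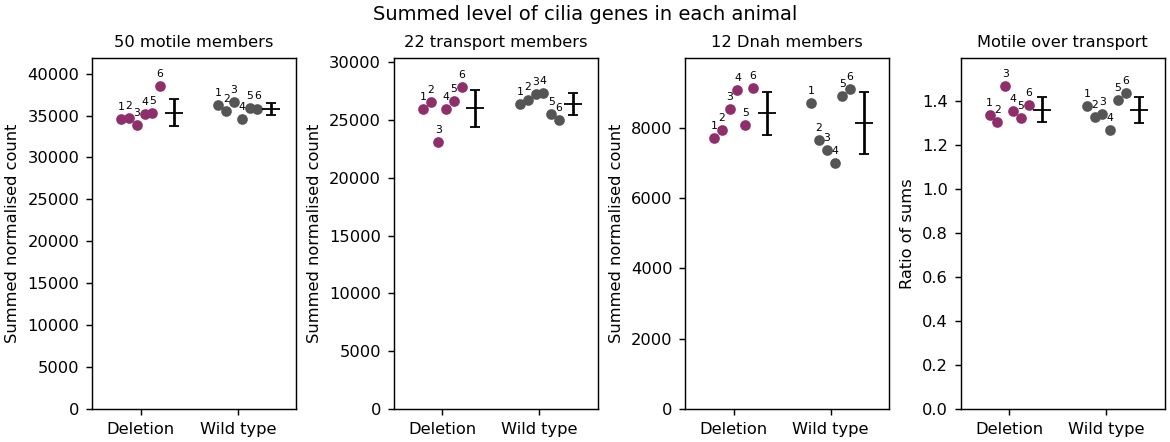
Summed normalised count of the 50 motile, 22 transport and 12 Dnah members, and the ratio of the motile to the transport sum, in each deletion (left) and wild-type (right) animal; numbers are replicate numbers and bars are the mean with SD. The genotypes overlap in all 4 panels, and deletion animal 3 has the lowest transport sum, 23091.

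Of the 6 members with the smallest p, 3 were dynein heavy chains and 3 were Cfap genes. Dnah8, an outer arm heavy chain best known from sperm, had 199, 237 and 304 normalised counts in deletion animals (lowest, median and highest) and 155, 203 and 249 in wild-type animals. The ranges overlapped between 199 and 249. The log2 fold change was 0.33 ± 0.12 (SE; limma p 0.0133, adjusted p 0.922). Dnah7a, an inner arm heavy chain, had 160, 184 and 247 normalised counts in deletion animals and 138, 158 and 180 in wild-type animals. Its highest value was in deletion animal 3, and the ranges overlapped. The log2 fold change of Dnah7a was 0.24 ± 0.11 (SE; limma p 0.0404, adjusted p 0.955), and 0.16 without deletion animal 3 (unadjusted p 0.118). Dnah7c averaged 184 ± 34.5 normalised counts in deletion animals and 155 ± 17.6 in wild-type animals, also highest in deletion animal 3 (limma adjusted p 0.955).

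Dnah17, the other outer arm heavy chain of sperm, varied most between animals, with a coefficient of variation of 55.6% over the 12. It had 40.0, 59.5, 115, 35.4, 34.8 and 26.1 normalised counts in deletion animals 1 to 6 and 27.2 to 47.6 in wild-type animals. Deletion animals 3 and 2 were the highest, and the other 4 lay within or just below the wild-type range. The log2 fold change was 0.37 ± 0.28 with all animals and -0.06 without deletion animals 2 and 3. The 9 spermatogenic marker genes were also highest in deletion animal 3, where their summed level was 113. It was 31.4 to 57.3 in the other deletion animals, lowest in animal 2, and 16.6 to 49.5 in wild-type animals. All 9 had reads in at least 1 library, but only 2 of them passed the filter on low counts. The library of deletion animal 3 had a read on 94.6% of all listed genes, so its rise in low genes was not limited to these markers. The part of the markers in the Dnah17 value was not tested.

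In the more abundant dynein genes the genotypes overlapped more widely. Dnah5, an outer arm heavy chain, had 2483, 2908 and 3410 normalised counts in deletion animals (lowest, median and highest) and 2358, 2760 and 3462 in wild-type animals. Dnah11, its outer arm partner, averaged 2197 ± 205 in deletion animals and 2275 ± 222 in wild-type animals (SD, n = 6 each). The wild-type range enclosed the deletion range for Dnah5, while Dnah11 overlapped with slightly higher wild-type values. Dnah6 averaged 790 ± 86.6 in deletion animals and 814 ± 140 in wild-type animals. The outer arm intermediate chain gene Dnaic2 averaged 449 ± 52.0 in deletion animals and 462 ± 52.0 in wild-type animals. Its partner Dnaic1 averaged 169 ± 13.3 in deletion animals and 153 ± 17.1 in wild-type animals. All 5 genes had a limma adjusted p of 0.955.

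Cfap46, a component of the central apparatus, had the smallest p of all members. It had 395, 751, 696, 506, 491 and 553 normalised counts in deletion animals 1 to 6 and 706, 794, 712, 630, 777 and 668 in wild-type animals 1 to 6. In 4 deletion animals it lay below every wild-type animal, and in deletion animals 2 and 3 within the wild-type range. The log2 fold change was -0.37 ± 0.13 (SE; limma p 0.0111, adjusted p 0.882). Without deletion animals 2 and 3, whose libraries stood apart, it was -0.56 and passed the test (limma adjusted p 0.00301), as did 113 genes in all. Without any single animal it ran from -0.45 to -0.27, and the adjusted p stayed above the threshold. Cfap46 (chr7:139600951-139683817) lies on the deleted chromosome, 36.68 Mb from the deletion. The other members on chromosome 7 are Dnah3 and, 18.71 Mb away, Cfap161.

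**Figure D4:**
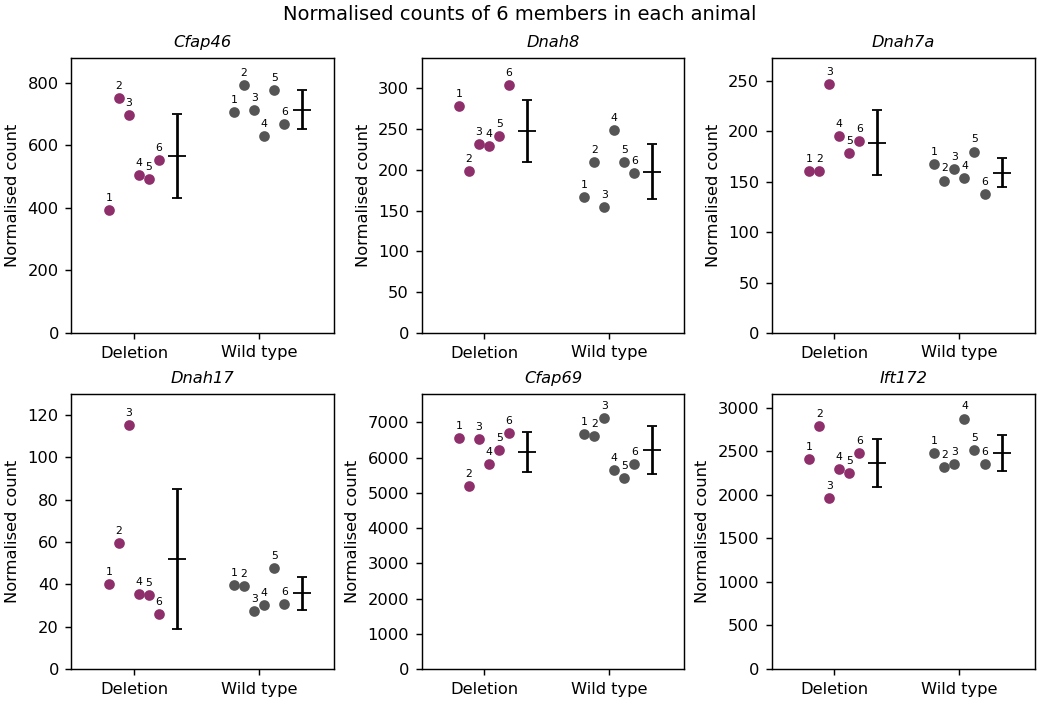
Normalised counts of Cfap46, Dnah8, Dnah7a, Dnah17, Cfap69 and Ift172 in each deletion (left) and wild-type (right) animal; numbers are replicate numbers and bars are the mean with SD. Cfap46 is below the wild-type range in deletion animals 1, 4, 5 and 6, Dnah17 is highest in deletion animal 3 at 115, and the genotypes overlap for all 6 genes.

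Among the other Cfap genes, Cfap61, of the complex that links calmodulin to the radial spokes, averaged 625 ± 39.4 in deletion animals and 686 ± 55.3 in wild-type animals (limma p 0.0581, adjusted p 0.955). Cfap77, a protein of the doublet microtubule wall, averaged 135 ± 13.3 in deletion animals and 118 ± 10.1 in wild-type animals (limma p 0.0706, adjusted p 0.955). The difference ran opposite ways in these 2 genes, and neither passed the test. Cfap36 averaged 2033 ± 215 in deletion animals and 2017 ± 183 in wild-type animals. Cfap44, part of the tether of an inner arm dynein, averaged 1851 ± 101 in deletion animals and 1896 ± 219 in wild-type animals. Both differed by less than 1 SD. Cfap73, which anchors inner arm dyneins, was one of the most variable members, with 19.5, 27.6 and 31.0 normalised counts in deletion animals and 14.7, 20.2 and 38.3 in wild-type animals.

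The radial spoke head genes did not separate the genotypes. Rsph4a averaged 1228 ± 123 normalised counts in deletion animals and 1199 ± 102 in wild-type animals. Rsph1 averaged 929 ± 103 in deletion animals and 961 ± 87.2 in wild-type animals. Rsph9 averaged 826 ± 90.4 in deletion animals and 872 ± 116 in wild-type animals. Each of the 3 had a limma adjusted p of 0.955. Of the tektins, filament proteins inside the doublet microtubules, Tekt1 averaged 653 ± 73.1 in deletion animals and 643 ± 67.3 in wild-type animals. Tekt4 had 147, 177 and 245 normalised counts in deletion animals and 96.5, 171 and 235 in wild-type animals, a wide spread in both. Tekt3 had 22.7 to 43.1 in deletion animals and 27.6 to 44.2 in wild-type animals.

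Among transport genes, the anterograde complex IFT-B was represented by Ift80, Ift172, Ift81 and Ift88. Ift80 had 3173, 3671 and 3882 normalised counts in deletion animals (lowest, median and highest) and 3179, 3589 and 3828 in wild-type animals. Ift172 had 1959, 2353 and 2786 in deletion animals and 2323, 2419 and 2876 in wild-type animals. Deletion animal 3 was the lowest of the 12 for both genes. For Ift172, deletion animals 4 and 5, at 2300 and 2251, also lay below every wild-type animal. The ranges of the genotypes overlapped for both genes. Ift81 averaged 1993 ± 224 in deletion animals and 2039 ± 160 in wild-type animals. Ift88 averaged 1458 ± 98.9 in deletion animals and 1481 ± 71.97 in wild-type animals, one of the narrowest spreads of all members. The antisense RNA Ift88os, whose reads can be told from those of Ift88 only where counting used strand, had 13.1 to 22.6 in deletion animals and 6.98 to 29.3 in wild-type animals.

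The Bbs family had the narrowest spread of the 7, and its leading genes encode subunits of the BBSome. Bbs9 averaged 1515 ± 98.2 normalised counts in deletion animals and 1525 ± 93.4 in wild-type animals. Bbs2 averaged 1311 ± 80.1 in deletion animals and 1359 ± 62.0 in wild-type animals. Bbs1 averaged 1233 ± 87.6 in deletion animals and 1265 ± 60.1 in wild-type animals. These differences were smaller than 1 SD in each case. For the narrowest members, Cfap97, Bbs2 and Ift88, the coefficient of variation over 12 animals was 5.34%, 5.46% and 5.67%. For the widest, Dnah17, Ift88os and Cfap73, it was 55.6%, 33.4% and 27.7%.

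The typical spread between animals was wider for motile than for transport genes, and the difference was not tested. The Dnaic family, with 2 genes, was only just above the transport members as a whole and was below the Ift family. With the part due to counting subtracted, the median coefficient of variation within groups was 10.3% for motile and 7.78% for transport members. By family it was 16.1% for Tekt, 14.5% for Dnah, 9.48% for Cfap, 9.21% for Rsph and 7.87% for Dnaic among motile genes, and 9.12% for Ift and 7.60% for Bbs among transport genes. Among members with a mean of at least 300 normalised counts it was 9.56% for 30 motile and 7.72% for 19 transport genes. Motile members had lower counts, with a median of 433 against 1157 normalised counts for transport members.

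The animals did not rank alike for the families. Among the 6 deletion animals, animal 3 was the highest in 5 of 12 Dnah genes and the lowest in none, with a median log2 difference of 0.19 from the other deletion animals. The 5 were Dnah2, Dnah17 and the near-identical copies Dnah7a, Dnah7b and Dnah7c. In Dnah5 and Dnah11, the most abundant of the family, animal 3 had 2875 and 1987 normalised counts, inside the range of the other deletion animals. The same animal was the lowest in 13 of 22 transport genes and 11 of 26 Cfap genes, with medians of -0.19 and -0.11. Its library stood apart, with the fewest recovered reads (10091239) and a read on 94.6% of listed genes. The share of all genes that were highest or lowest in this animal is not given here, so these counts cannot be set against it. Wild-type animal 4 was the highest of all 12 in 9 of 22 transport genes, while the Dnah genes lay at a median of -0.24 from their mean there. In wild-type animals 5 and 6 the Dnah genes lay at medians of 0.14 and 0.15.

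**Figure D5:**
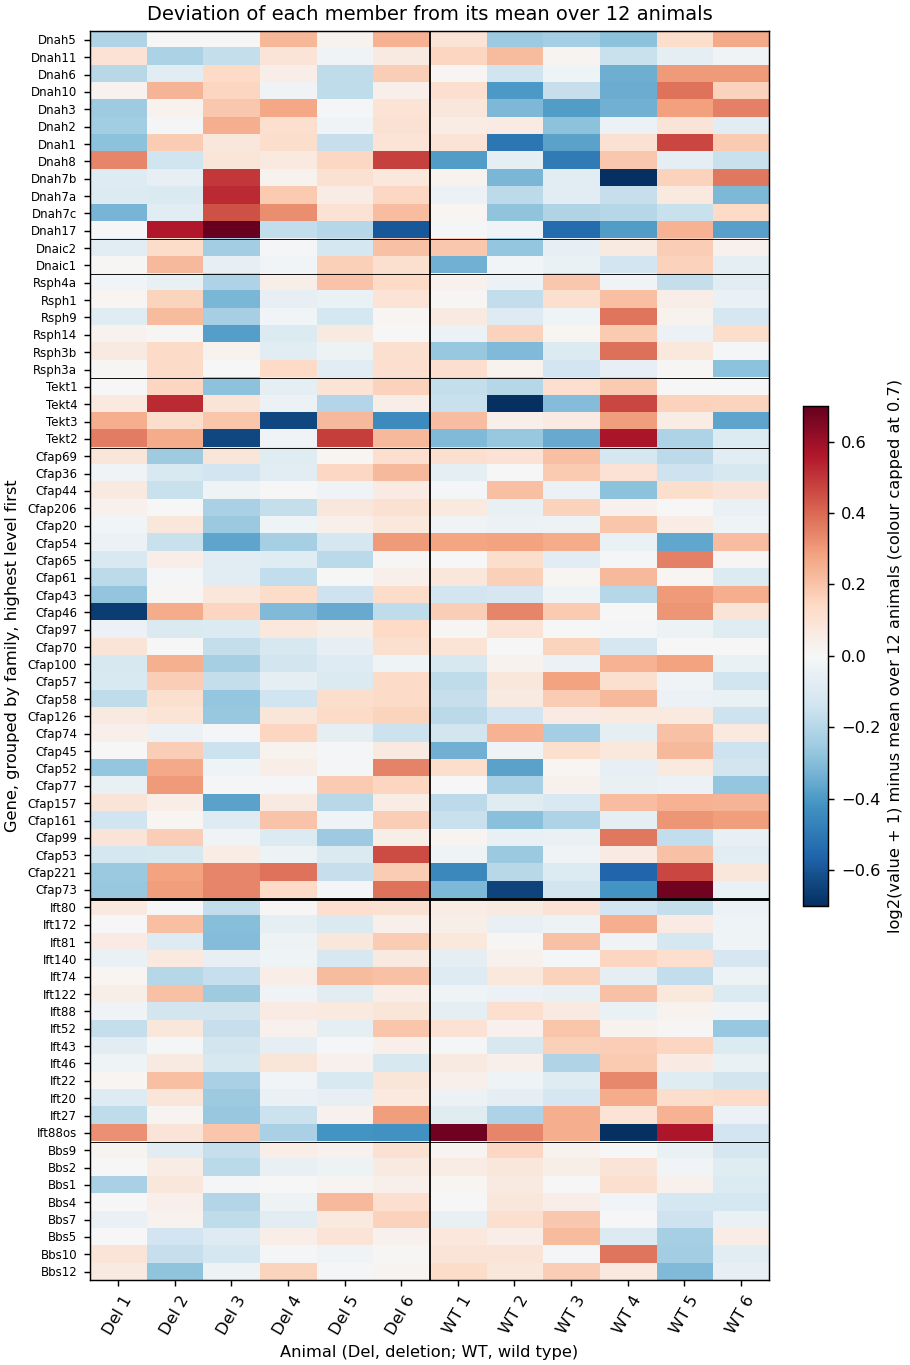
Deviation of each member from its own mean over 12 animals on the log2(value + 1) scale (colours capped at 0.7), by family and with the highest level first; deletion animals are on the left of the vertical line and wild-type animals on the right. Columns differ by family within an animal: deletion animal 3 is high in several Dnah genes and low in most Ift and Bbs genes.

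Spearman correlations between members over the 12 animals describe which genes moved together; all members share the same libraries and size factors. The median was 0.33 within Dnah, 0.41 within Bbs, 0.23 within Ift and 0.14 within Cfap. Without deletion animal 3 these medians were 0.29, 0.31, 0.09 and 0.15. Between the Dnah genes and the transport genes it was -0.19 over 12 animals and -0.10 over the 11 without deletion animal 3. Between all motile and all transport members it was 0.05.

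The dynein heavy chains did not form a single group. Dnah5 correlated with Dnah3 (0.86) and Dnah6 (0.79) but not with Dnah11 (0.01), although Dnah5 and Dnah11 serve in the same outer arm. The member most like Dnah11 was Bbs9 (0.75), and Dnah11 correlated with Cfap69 at 0.64. Cfap69 in turn was most like the transport gene Ift81 (0.76), as were Cfap36 (0.90), Cfap206 (0.85) and Cfap54 (0.78). The highest correlation of Dnah6 was with Cfap43 (0.93), of the same inner arm tether as Cfap44. Cfap44 itself was not among the 3 members most like Dnah6 or Cfap43. Leaving out deletion animal 3 gave 0.93 for Dnah5 with Dnah3, 0.90 for Cfap69 with Ift81 and 0.92 for Dnah6 with Cfap43. Over 12 animals the member nearest by correlation was of the same class for 33 of 50 motile genes (66.0%), where 69.0% of the other members are motile. It was of the same class for 12 of 22 transport genes (54.5%), where 29.6% of the other members are transport genes. Neither share was tested, and neither was computed without deletion animal 3. Without that animal the median correlation within transport genes was 0.13, against 0.27 over 12 animals.

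Marker genes of the 2 ciliated cell types were read beside the members. The summed level of the 16 listed respiratory multiciliated markers was 41856 to 50546 in deletion animals and 45234 to 55486 in wild-type animals. Sec14l3 made up most of that sum, with a mean of 37387. The 18 mature olfactory neuron markers, led by Omp and Gnal, summed to 200316 to 257114 in deletion animals and 199483 to 264177 in wild-type animals. No marker of either list was at 0 in all libraries. Each list was also summarised in each animal as the median log2 deviation of its genes from their means, and the members' Spearman correlations with it describe the same 12 libraries. The median correlation with the neuron list was 0.20 for motile, -0.30 for Dnah and 0.42 for transport genes. With the multiciliated list it was 0.29 for motile, 0.10 for Dnah and 0.10 for transport genes. Without deletion animal 3 the correlation of transport genes was 0.25 with the neuron list and -0.08 with the multiciliated list, and that of Dnah genes was -0.15 and 0.34. Correlations with the list of sustentacular (supporting) cell markers ran the same way as those with the neuron list for most transport and Dnah genes, but not for every member. Bbs5, Ift74 and Ift88 were at -0.28, -0.17 and -0.22 with the neuron list but at 0.41, 0.41 and 0.39 with the sustentacular list. The motile genes Tekt4 and Rsph3b were above 0 with the neuron list and below 0 with the sustentacular list. All transport genes but Ift88os (-0.08) were above 0 with it, from 0.13 for Ift122 to 0.71 for Bbs10. All Dnah genes but Dnah11 (0.43) were below 0, down to -0.66 for Dnah17. Over the 12 animals, the likeness of transport genes to the neuron list was therefore not particular to neurons. The sustentacular correlations were not computed without deletion animal 3, which had the lowest summed level of those markers, 185993. The part of cell composition in these patterns was not tested.

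Other cilia genes, read from 6 lists chosen with earlier results of these data known, were tested in the same fit: 0 of 135 genes passed, beside 0.497% of all genes tested, with 1 at an unadjusted limma p under 0.05, beside 4.39% of all genes tested. The median log2 fold change was 0.02 for 60 tested genes of motile structure and assembly and -0.03 for 9 regulators of motile cilia. It was -0.01 for 23 intraflagellar transport genes with other names and 0.01 for 9 BBSome genes with other names. It was -0.03 for 20 transition zone genes and -0.03 for 14 genes of olfactory cilium signalling, each close to the -0.01 of all genes. Rfx3, a regulator of ciliary genes, averaged 6309 ± 670 normalised counts in deletion animals and 6425 ± 578 in wild-type animals. Foxj1, the master regulator of motile cilia, averaged 1932 ± 210 in deletion animals and 2008 ± 270 in wild-type animals. Dync2h1, the motor of retrograde transport, averaged 4824 ± 319 in deletion animals and 4697 ± 469 in wild-type animals. None of these separated the genotypes.

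The exception at the unadjusted level was Armc4, a docking factor for outer dynein arms encoded on chromosome 18. It had 471 to 510 normalised counts in deletion animals and 426 to 445 in wild-type animals, so every deletion animal was above every wild-type animal, as in the 0.629% of all genes whose ranges did not overlap in either direction. The means were 491 ± 15.4 in deletion animals and 435 ± 8.24 in wild-type animals (SD, n = 6 each). The log2 fold change was 0.17 ± 0.05 (SE; limma p 0.00477, adjusted p 0.594), so it did not pass the test. Armc4 was named after its values were seen.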

How the data were processed

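Total RNA of the olfactory mucosa was sequenced from 12 animals. STAR 2.6.0, DESeq2 and the build GRCm38.p6 are named in the submitters' processing notes. For the counting of reads per gene, the tool and its strand setting were not given in the sources used. The authors deposited 1 table of normalised counts (a signal unit: read counts divided by a size factor per library). All values were whole multiples of 1 read (100%, tolerance 0.01 of a read), so reads were recovered. The deposited table also holds the authors' log2 fold change (wild type over deletion), p-value and adjusted p-value, used only where named, and a Wald score, not used. Its last row is incomplete and was left out, leaving 39395 genes; 2917 more, implied by the authors' adjusted p-values, were not analysed here.

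Gene positions and exon lengths came from GENCODE M21, matched by Ensembl identifier for 39318 rows (99.8%), and promoter sequences from RefSeq (GRCm38.p6). Tests used limma 3.58.1 (R 4.3.3; trend and robust moderation) on log2(value + 1), which understates changes of low genes, with genotype as the only term. The expression filter of edgeR 4.0.16 (minimum count 10 on recovered reads) kept 17320 genes. Alternatives were edgeR's quasi-likelihood test, DESeq2 1.42.0 and limma-voom on recovered reads, TMM scaling, other pseudocounts and filters, a replicate block, and libraries left out. On simulated counts of 17320 genes, 200 of them changed, this fit called 7 unchanged genes.

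The members and lists were chosen with earlier results of these data known. Named genes were the 3 highest members of each family by mean, the 6 smallest p, the 3 widest and 3 narrowest coefficients of variation, and the 2 genes on each side of the mean of 10; other genes were named after their values were seen.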

Additional observations from a re-analysis of the deposited data

Results flagged for a closer look

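In 7 of 70 sets of 6 values tested (each named member and class sum in each genotype), 1 animal stood far from the other 5 by Dixon's criterion, where chance gives about 3.5. Some of these members, such as Dnah17 and Cfap73, were named for their wide spread over the same animals, and the sets share libraries. The chance figure is therefore not a fair comparison. Of the motile genes, Dnah17 was 115 in deletion animal 3 (26.1 to 59.5 in the other deletion animals), Tekt4 was 245 in deletion animal 2 (147 to 181 in the others), Rsph9 was 1095 in wild-type animal 4 (779 to 882 in the others) and Cfap73 was 38.3 in wild-type animal 5 (14.7 to 22.9 in the others). Of the transport genes, Bbs1 was 1064 in deletion animal 1 (1236 to 1315 in the others) and Ift172 was 2876 in wild-type animal 4 (2323 to 2510 in the others). The motile sum was 38521 in deletion animal 6 (33888 to 35300 in the others).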

How the results depend on the processing

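Under 30 alternatives, 0 members were called, except that leaving out deletion libraries 2 and 3 together called 1 of 72 members and 1 of 50 motile members, Cfap46 (log2 fold change -0.56, limma adjusted p 0.00301); the cause was not tested. Dnah17 reversed to -0.058 there. A filter on a mean of at least 50, which tests fewer genes, called 37 genes in all, against 86. Leaving out 1 library at a time called 0 members and 82 to 98 genes in all, with medians of -0.01 to 0.03 for motile and -0.05 to -0.0047 for transport members, and median coefficients of variation of 9.93% to 10.6% for motile and 7.28% to 8.28% for transport members. Without subtracting counting error, a choice made after seeing the data, these were 12.04% and 8.96%. The labels number animals 1 to 6 in both genotypes, but same-numbered animals correlated at -0.24 to -0.01 and none was nearest to its own number, so the numbers do not pair animals; with the replicate block 0 members, 0 motile and 0 transport members and 77 genes in all were called, and the medians were 0.01 and -0.03. The other 919 values computed stayed within limits set by their kind. Fold changes and adjusted p-values of single genes kept their direction and their side of the threshold, and counts stayed within 1.5 times. The rest, such as the class medians, moved by less than the spread between animals, whatever their sign. The motile median did change sign, running from -0.01 to 0.03 with 1 library left out at a time. Low members such as Ift88os and Cfap73, at 19.0 and 24.4 normalised counts, carry the largest counting error; animals could not be assigned to litters or batches from the labels.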
